A study of Homo sapiens with 16 samples.

Results

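Cadherin transcripts were measured by total RNA sequencing in A101D and MeWo, established human melanoma lines. The members are the 8 cadherin genes CDH1, CDH2, CDH3, CDH4, CDH6, CDH11, CDH13 and CDH19, taken by symbol from the 60676 gene identifiers that both deposited count tables hold. All 8 were found, and all 8 passed the filter on low counts, but CDH3 and CDH4 passed through their level in MeWo, CDH6 and CDH13 through their level in A101D, so that some difference was built into the passing of these 4. Each line was profiled in 8 libraries numbered 1 to 8, and the values are given per line and for replicates 1-4 and 5-8 of each line. A101D is labelled methionine dependent and MeWo methionine independent, so each kind of cell is represented by 1 established line. The growth protocol gives a base medium with dialyzed serum, glutamine, pyruvate and 150 µM cystine that held either methionine or homocysteine at 200 µM. No label or header says which library had which medium or what separates replicates 1-4 from 5-8, and nothing says that the replicates came from separate cultures, so p-values measure the spread between these libraries, which may be technical.

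Cadherins are calcium-dependent adhesion proteins of the cell surface. The classical members bind the same cadherin on a neighbouring cell with their outer domains, and their cytoplasmic tails bind beta-catenin and p120-catenin, which link the junction to actin through alpha-catenin. E-cadherin (CDH1) and P-cadherin (CDH3) hold melanocytes to keratinocytes in the epidermis, and melanoma is known for loss of E-cadherin and gain of N-cadherin (CDH2), often called the cadherin switch. R-cadherin (CDH4) is a close relative of N-cadherin. CDH6, CDH11 and CDH19 are type II cadherins, of which CDH19 is known from the neural crest, Schwann cell precursors and pigment cells. T-cadherin (CDH13) has no transmembrane or cytoplasmic part and sits in the membrane by a lipid anchor.

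Library totals ran from 28910881 to 38961862 counts. All 7 melanocyte markers were detected in both lines, and their summed level was 2012 to 2769 CPM in A101D (counts per 1000000 of the scaled library size), against 10130 to 11340 CPM in MeWo. TYR and TYRP1 were nearly absent from A101D, at 1.10 to 1.75 CPM and 0.249 to 1.75 CPM. Of the markers of other cell types, the 4 leukocyte genes summed to at most 0.585 CPM in any library, and the 5 keratinocyte genes to 34.1 to 42.9 CPM in A101D against 19.5 to 25 CPM in MeWo, most of it KRT10 (33.2 to 40.9 and 19.3 to 24.9 CPM), with KRT14 at up to 2.22 CPM in A101D and KRT1 and KRT5 at no more than 0.0946 CPM. The 4 endothelial markers summed to 107 to 157 CPM in A101D against 2.76 to 3.19 CPM in MeWo, and the 6 fibroblast markers to 10.9 to 13.1 CPM against 76.1 to 85.9 CPM.

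CDH2 and CDH19 carried most of the summed level of the 8 members in both lines, in different proportions. Compared per kilobase of exon, CDH2 took 77.6% to 83.9% of the summed level of the 8 members in the A101D libraries, with a median of 80.7%, while CDH19 took 6.78% to 11.5%. In MeWo, CDH19 took the largest share, 51.3% to 57.1%, and CDH2 took 41.3% to 46.6%. The other 6 members together made up the remainder, which in MeWo was below 1% for each gene. The summed level of all 8 was 37.9 to 42.5 CPM per kilobase in A101D and 53.2 to 62.2 in MeWo, and the lines did not overlap. These shares leave out the rest of the family. FAT1, a large cadherin, stood at 29.8 to 33.2 CPM per kilobase in A101D and 24.6 to 27.8 in MeWo. CDH24 stood at 2.18 to 3.05 in A101D and 1.10 to 1.55 in MeWo. DSG2, a desmosomal cadherin, stood at 8.94 to 11.8 in A101D and 19.5 to 21.4 in MeWo. PCDH1, a protocadherin, stood at 16.3 to 25.0 in A101D and 2.76 to 3.93 in MeWo. These genes are examples and not the whole family.

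**Figure D1:**
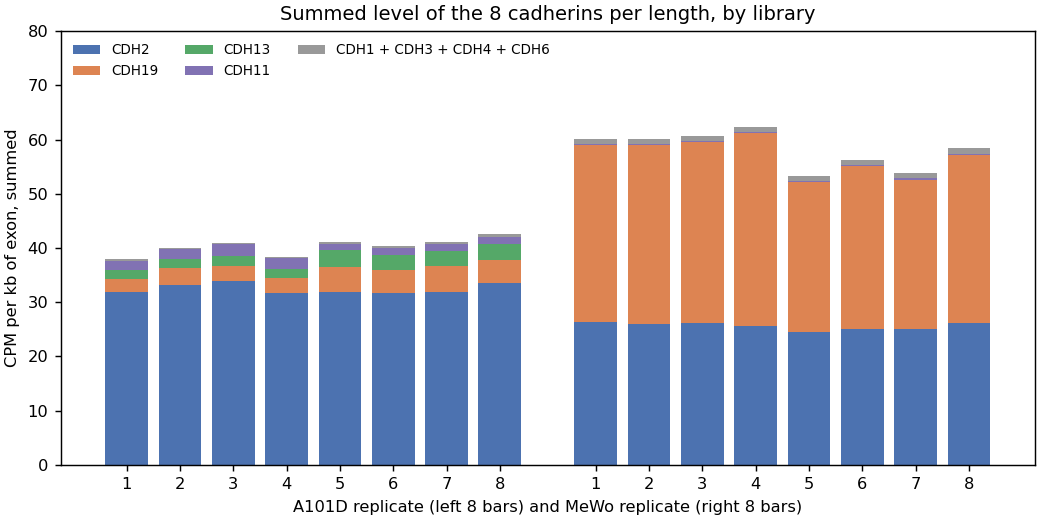
Summed level of the 8 cadherins in each library, in CPM per kilobase of exon, as stacked bars for A101D (left, replicates 1 to 8) and MeWo (right, replicates 1 to 8), with CDH1, CDH3, CDH4 and CDH6 drawn together. CDH2 fills 77.6% to 83.9% of each A101D bar, and CDH19 fills 51.3% to 57.1% of each MeWo bar.

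CDH2 and CDH19 both lie on the minus strand of chromosome 18, CDH2 at chr18:27950966-28177446 and CDH19 at chr18:66501083-66604138 (GENCODE v29, GRCh38). Since these members made up most of the summed level of the 8, the 250 bases before their RefSeq starts are shown for comparison (GRCh38.p14). RefSeq windows matched 3 of the 8 members. The CDH2 window is chr18:28177131-28177380 and the CDH19 window is chr18:66604091-66604340, both 5′ to 3′ on the minus strand. By the GENCODE v29 positions given above, the CDH2 window lies inside its gene and the CDH19 window partly so. Capitals mark the letters ACAAAG, the core of sites read by SOX proteins such as SOX10.
CDH2: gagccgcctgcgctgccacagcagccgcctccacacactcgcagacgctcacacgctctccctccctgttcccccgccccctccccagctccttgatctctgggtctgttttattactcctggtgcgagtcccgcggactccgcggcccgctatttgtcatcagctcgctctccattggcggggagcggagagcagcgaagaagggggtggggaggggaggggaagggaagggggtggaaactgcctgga
CDH19: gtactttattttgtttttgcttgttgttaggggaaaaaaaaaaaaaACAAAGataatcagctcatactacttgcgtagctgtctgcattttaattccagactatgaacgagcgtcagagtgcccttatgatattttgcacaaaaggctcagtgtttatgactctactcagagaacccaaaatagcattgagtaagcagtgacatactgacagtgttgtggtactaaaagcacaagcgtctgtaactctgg
The windows differ in base composition. The CDH2 window holds 66.0% G and C with 17 CpG, and the CDH19 window 38.0% with 4 CpG. Over all 35116 promoter windows of this length the median was 58.0% and 11 CpG, and CDH19 stood at percentile 9.5. Both strands were searched for the E-box forms CACCTG and CACGTG and CATGTG, for the SOX core ACAAAG and for the TATA box TATAAA, whose matches do not overlap one another in the printed windows. The CDH2 window held none of these, and the CDH19 window held 1 ACAAAG, which 13.7% of all windows hold, against 17.5% for CACCTG, 6.3% for CACGTG, 9.4% for CATGTG and 10.7% for TATAAA. The second RefSeq start of CDH2, at chr18:28036642-28036891, has a window of 42.0% G and C with 1 TATAAA. A match is a description of the letters and was not tied to any value here.

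The highest member per length stood apart from the next in each line, and some neighbours below it overlapped. In A101D it ran CDH2, CDH19, CDH13, CDH11, CDH1, CDH6, CDH3 and CDH4, with means of 32.4, 3.65, 2.29, 1.57, 0.207, 0.0494, 0.0156 and 0.0137 CPM per kilobase. CDH13 and CDH11 changed places between the replicate sets: CDH11 was the higher of the pair in 4 of 4 libraries of replicates 1-4, and CDH13 in 4 of 4 libraries of replicates 5-8. In MeWo it ran CDH19, CDH2, CDH3, CDH4, CDH11, CDH1, CDH6 and CDH13, with means of 31.3, 25.7, 0.388, 0.347, 0.246, 0.121, 0.0170 and 0.00383. Neighbours whose libraries overlapped were CDH19 and CDH13, CDH13 and CDH11, and CDH3 and CDH4 in A101D, and CDH3 and CDH4, and CDH6 and CDH13, in MeWo. Of those, CDH19 was above CDH13 in 8 of 8 A101D libraries.

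**Figure D2:**
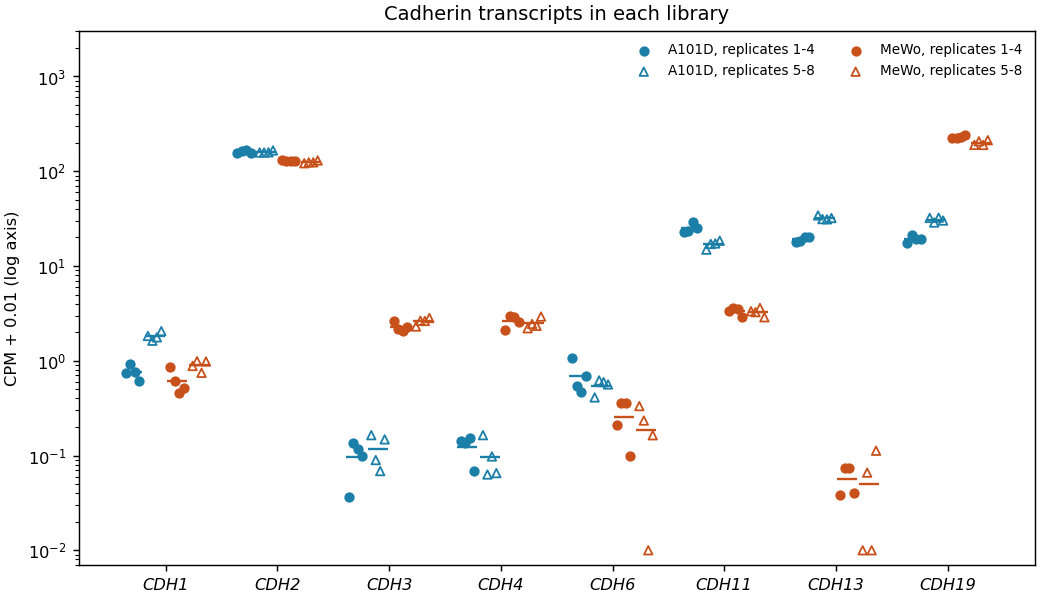
Level of each cadherin in the 16 libraries, as CPM plus 0.01 on a log axis, with filled circles for replicates 1-4, open triangles for replicates 5-8 and a short line at the mean of each set. CDH2 is between 121 and 168 CPM in every library, CDH13 is above 17 CPM in every A101D library and at most 0.102 CPM in MeWo, and CDH19 lies above 189 CPM in every MeWo library.

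The first question was how the cadherins differed between the lines. With limma-voom, 3 of the 8 members were higher in MeWo (CDH3, CDH4 and CDH19) and 5 were lower (CDH1, CDH2, CDH6, CDH11 and CDH13) at an adjusted p of 0.05. Over all 19247 genes tested the same rule called 79.0% (38.6% higher and 40.4% lower), so a call by itself was the common outcome. With upper-quartile factors over all genes with a count the members split into 4 higher and 3 lower, since CDH2 changed sign and CDH1 lost its call. For 7 of the 8 members no MeWo library fell within the A101D range or the reverse, against 57.7% of all genes. CDH1 was the member that overlapped. The median log2 fold change of the members was -0.51, beside -0.02 over all genes tested.

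CDH2 encodes N-cadherin, the classical cadherin of neural and mesenchymal cells. In A101D it stood at 157, 165, 168 and 157 CPM in replicates 1 to 4 and at 158, 157, 158 and 166 CPM in replicates 5 to 8. MeWo held 131, 129, 130 and 127 CPM and then 121, 124, 124 and 130 CPM. Every MeWo library was below every A101D library, by little. The log2 fold change was -0.34 ± 0.03 (SE, adjusted p = 8.82e-09), and it turned to 0.16 (adjusted p = 0.00628) with upper-quartile factors over all genes with a count, which moved the median of all genes from -0.02 to 0.47. Relative to that median CDH2 was at -0.32 under both scalings. An antisense gene, AC110015.1, shares 136 exon bases with CDH2 (2.75% of its exons) and had 223 counts in A101D and 35 in MeWo, beside 43748 and 34496 for CDH2.

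CDH19 was the most abundant of the 8 members in MeWo. Its level there was 223, 226, 229 and 244 CPM in replicates 1 to 4 and 190, 207, 189 and 212 CPM in replicates 5 to 8. A101D had 17.6, 21.1, 19.2 and 19.1 CPM and then 32.1, 28.7, 32.3 and 30.2 CPM. The lowest MeWo library lay far above the highest A101D library, and the log2 fold change was 3.13 ± 0.12 (SE, adjusted p = 1.14e-13). The ratio of CDH19 to CDH2 per length was 0.0808 to 0.147 in A101D and 1.10 to 1.38 in MeWo. Of the 7 melanocyte markers, 6 were higher in MeWo, as CDH19 was, and DCT was lower. Over all genes tested, 38.6% were called higher and 40.4% lower. The part of these markers in the CDH19 result was not tested.

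CDH13 was the member with the widest gap between the lines. A101D libraries held 573 to 1179 counts of it, which is 17.8, 18.5, 20.4 and 19.995 CPM in replicates 1 to 4 and 34.2, 31.2, 31.0 and 32.0 CPM in replicates 5 to 8. MeWo held 1, 2, 2 and 1 counts in replicates 1 to 4 and 0, 2, 0 and 4 counts in replicates 5 to 8. A count of 0 allows up to 3 counts, which is 0.0967 CPM in MeWo replicate 5 and 0.0883 CPM in MeWo replicate 7. Summed over the libraries, 7032 counts in A101D stood against 12 in MeWo, a ratio of 584 (exact 95% interval 334 to 1130, counting error only; adjusted p of limma-voom = 4.02e-11). CDH13 covers chr16:82626803-83800640 on the plus strand, and an antisense gene that shares 141 of its exon bases, AC009119.1, had 68 counts in A101D and 6 in MeWo.

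CDH11, also called OB-cadherin, is a type II cadherin of mesenchymal cells and lies at chr16:64943753-65126112 on the minus strand. A101D had 23.1, 23.2, 29.2 and 25.2 CPM in replicates 1 to 4 and 14.9, 17.1, 17.3 and 18.5 CPM in replicates 5 to 8. MeWo stayed between 2.86 and 3.59 CPM in all 8 libraries. The log2 fold change was -2.64 ± 0.15 (SE, adjusted p = 3.26e-11). PDGFRB and PDGFRA, the receptors on the fibroblast list, were also lower in MeWo, with 2068 counts against 82 and 423 against 27, while the other 4 genes of that list were higher there. Their part in the CDH11 result was not tested.

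CDH3 and CDH4 were read in MeWo and hardly at all in A101D. CDH3 encodes P-cadherin, a classical cadherin of basal epithelium. It had a lowest, median and highest level of 2.03, 2.44 and 2.81 CPM in MeWo, and in A101D it had 0.0261, 0.0980 and 0.154 CPM. Summed counts were 662 and 26, a ratio of 25.6 (exact 95% interval 17.3 to 39.4; adjusted p of limma-voom = 2.58e-12). CDH4 (chr20:61252426-61940617, plus strand) had 2.08, 2.50 and 2.96 CPM in MeWo against 0.0530, 0.106 and 0.154 CPM in A101D, with 693 against 27 counts and a ratio of 25.8 (17.6 to 39.4; adjusted p = 1.07e-12). The lines did not overlap for either gene. An A101D library held 1 to 5 counts of either gene, which is too few to compare A101D libraries with each other.

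CDH3 and CDH1 are neighbours on the plus strand of chromosome 16, CDH3 at chr16:68636189-68722616 and CDH1 at chr16:68737225-68835548, with 14608 bases between them. They did not move alike: CDH3 was higher in MeWo, and CDH1, which encodes E-cadherin, was low in both lines. CDH1 was at 0.731, 0.906, 0.748 and 0.594 CPM in A101D replicates 1 to 4 and at 1.82, 1.62, 1.75 and 2.04 CPM in replicates 5 to 8. MeWo had 0.856, 0.599, 0.444 and 0.508 CPM and then 0.870, 0.979, 0.736 and 0.972 CPM. A library held 14 to 74 counts of CDH1. The antisense gene AC126773.2 shares 694 exon bases with CDH3 (11.1% of its exons) and had 1 count in A101D and 23 in MeWo, and AC099314.1 shares 347 exon bases with CDH1 and had 1 count in A101D and 0 in MeWo.

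The line difference of CDH1 was called in replicates 5-8 and not in replicates 1-4, but the test between the sets missed the threshold. Over all 16 libraries its log2 fold change was -0.67 ± 0.29 (SE, adjusted p = 0.0411), and the lines overlapped. In replicates 1-4 it was -0.31 ± 0.24 (adjusted p = 0.232; 0.155 with upper-quartile factors over all genes with a count), and in replicates 5-8 it was -1.01 ± 0.18 (adjusted p = 3.61e-06), where all 4 MeWo libraries were below all 4 A101D libraries. The difference between these set values, -0.69 ± 0.30, was itself tested and had an adjusted p of 0.0541, which became 0.0361 to 0.0431 under the other scalings over filtered genes (median-of-ratios, upper-quartile and total counts), 0.0465 with a filter at 1 CPM, 0.0418 with limma-trend and 0.0466 with the replicate block. The call over all libraries was lost without A101D replicate 5, 6, 7 or 8 or MeWo replicate 2, 3, 4, 5 or 7, with adjusted p from 0.0526 to 0.0944, and with upper-quartile factors it was 0.0513. With upper-quartile factors over all genes with a count it was -0.19 (adjusted p = 0.519).

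CDH6, or K-cadherin, is a type II cadherin known from kidney and neural crest and lies at chr5:31193750-31329146 on the plus strand. A101D had a lowest, median and highest level of 0.400, 0.568 and 1.07 CPM, and MeWo had 0, 0.212 and 0.349 CPM. MeWo replicate 7 held no count, which allows up to 0.0883 CPM. Summed counts were 170 and 56, a ratio of 3.02 (exact 95% interval 2.22 to 4.17; adjusted p of limma-voom = 0.00149). The lines did not overlap. The processed pseudogene DUX4L51 shares 1109 exon bases with CDH6 (8.96% of its exons) and had 0 counts in both lines.

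**Figure D3:**
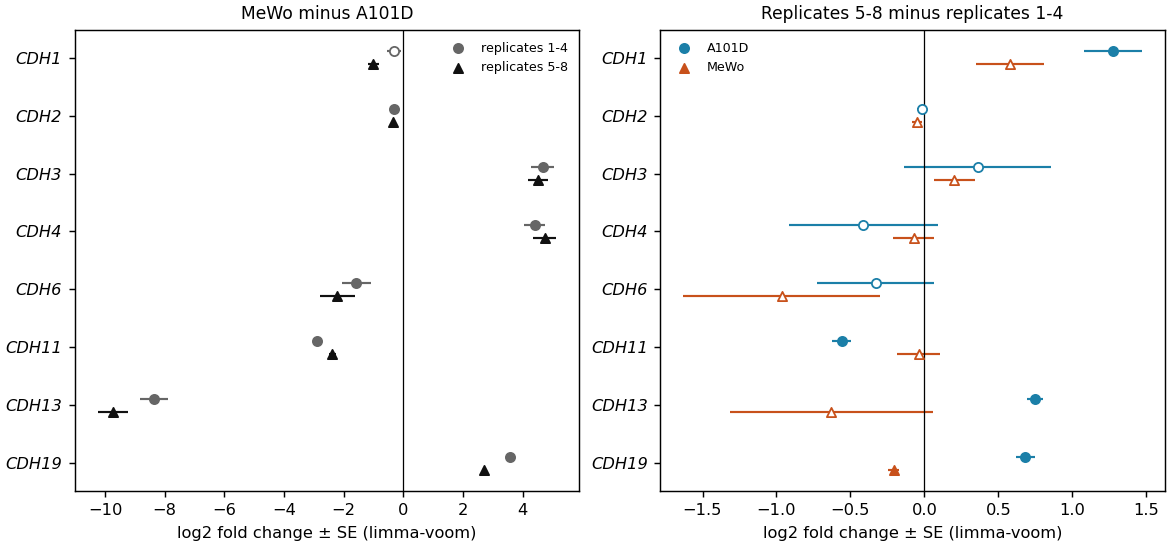
Log2 fold change ± SE of each cadherin from the four-group limma-voom fit, on the left MeWo minus A101D in replicates 1-4 (circles) and in replicates 5-8 (triangles), and on the right replicates 5-8 minus 1-4 in A101D (circles) and MeWo (triangles). Filled symbols passed an adjusted p of 0.05: on the left all but CDH1 in replicates 1-4, on the right CDH1, CDH11, CDH13 and CDH19 in A101D and CDH19 in MeWo.

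Within each replicate set the line comparison gave 7 members past the threshold in replicates 1-4 and 8 in replicates 5-8, where 79.4% and 84.2% of the 21569 genes tested passed. The lines did not overlap for 7 and 8 members, against 73.0% and 79.2% of all genes. CDH19 was higher in MeWo in both sets, by 3.59 ± 0.06 on the log2 scale in replicates 1-4 and by 2.7 ± 0.05 in replicates 5-8. CDH11 was lower, at -2.90 ± 0.11 in replicates 1-4 and by -2.38 ± 0.11 in replicates 5-8. CDH2 was nearly the same in both, at -0.32 ± 0.03 and -0.36 ± 0.03, with the change of sign under upper-quartile factors over all genes to 0.15 and 0.16.

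The second question was how the cadherins differed between replicates 5-8 and 1-4 of the same line. In A101D, CDH1, CDH13 and CDH19 rose and CDH11 fell, while CDH2, CDH3, CDH4 and CDH6 did not pass the test. The background was high: 65.5% of the 21569 genes tested passed the threshold in A101D (33.8% higher and 31.7% lower), and 59.7% did not overlap between the sets, against 4 of 8 members for both. The median log2 fold change was 0.17 for the members and 0.02 for all genes tested.

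CDH1 had the largest change of the 4. It went from 0.745 ± 0.128 CPM to 1.81 ± 0.177 CPM (SD, n = 4 libraries per set), a log2 fold change of 1.27 ± 0.19 (SE, adjusted p of limma-voom = 3.06e-07). CDH13 went from 19.2 ± 1.23 to 32.1 ± 1.43 CPM, or 0.75 ± 0.06 on the log2 scale (adjusted p = 4.44e-15). CDH19 went from 19.3 ± 1.44 to 30.8 ± 1.71 CPM, or 0.68 ± 0.06 (adjusted p = 4.34e-12). For each of these genes all 4 libraries of replicates 5-8 lay above all 4 of replicates 1-4. CDH11 moved the other way, from 25.2 ± 2.88 to 16.9 ± 1.5 CPM, or -0.56 ± 0.07 (adjusted p = 1.27e-09), and its sets did not overlap either.

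CDH2 stood at 162 ± 5.48 and 160 ± 4.02 CPM in the A101D sets, a log2 fold change of -0.02 ± 0.03 (adjusted p = 0.694). With library sizes from total counts alone it was 0.07 (adjusted p = 0.0239), and with upper-quartile factors over all genes it was -0.12 (adjusted p = 0.0169), so neither a change nor its direction can be given. The share of CDH2 in the summed level per length was 82.7% to 83.9% in replicates 1-4 and 77.6% to 78.7% in replicates 5-8, and the summed level itself was 37.9 to 40.9 and 40.4 to 42.5 CPM per kilobase. CDH3 (0.36 ± 0.50, adjusted p = 0.544) and CDH4 (-0.41 ± 0.50, adjusted p = 0.487) rested on too few counts for a statement in A101D. CDH6, with 13 to 41 counts in an A101D library, did not pass (-0.33 ± 0.39, adjusted p = 0.484).

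Some markers of other cell types differed between the A101D sets, as did 65.5% of all genes tested (33.8% higher and 31.7% lower). All 4 endothelial genes were higher in replicates 5-8, with a summed level of 107 to 124 CPM in replicates 1-4 and 146 to 157 CPM in replicates 5-8. Most of that sum was KDR, with 32177 counts over the A101D libraries, beside 2733 for VWF, 1982 for TEK and 97 for PECAM1. The 5 keratinocyte genes summed to 34.1 to 36.8 CPM and 39.8 to 42.9 CPM, with KRT1 at 0 in every A101D library. The 6 fibroblast genes summed to 10.9 to 13.1 CPM and 10.9 to 12.4 CPM, with 4 called higher and 1 lower. Of the 7 melanocyte genes, 2 were higher and 4 lower in replicates 5-8. Their part in the cadherin results was not tested. More or fewer cells that express a gene cannot be told apart from more or less RNA per cell in these bulk libraries.

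In MeWo, 1 of the 8 members passed the threshold between the sets, beside 13.8% of all genes tested, and the sets did not overlap for 1 member, beside 16.7%. CDH19 fell, from 230 ± 9.32 CPM in replicates 1-4 to 199 ± 11.9 CPM in replicates 5-8 (SD, n = 4 libraries per set), a log2 fold change of -0.21 ± 0.04 (SE, adjusted p of limma-voom = 0.000202). The highest library of replicates 5-8, at 212 CPM, was below the lowest of replicates 1-4, at 223 CPM. CDH1 was at 0.602 ± 0.181 and 0.889 ± 0.114 CPM, with a log2 fold change of 0.58 ± 0.23 that missed the threshold (adjusted p = 0.0922). CDH11, at 3.33 ± 0.298 and 3.26 ± 0.3 CPM, and CDH2, at 129 ± 1.55 and 125 ± 3.55 CPM, did not pass either.

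The difference between the lines in these set contrasts was tested itself. CDH19 and CDH11 passed, where 49.2% of all genes did. CDH19 rose in A101D and fell in MeWo, a difference of -0.89 ± 0.07 on the log2 scale (SE, adjusted p of limma-voom = 6.71e-13), so the gap between the lines was narrower in replicates 5-8. The CDH11 contrast was 0.52 ± 0.16 higher in MeWo than in A101D (adjusted p = 0.00592). For CDH13 the difference was -1.38 ± 0.69 (adjusted p = 0.0956), with 12 counts behind the MeWo side, and it passed without MeWo replicate 8, at -1.97 (adjusted p = 0.0250). CDH1 missed at 0.0541, passed under the other scalings, filter and models named for it above, and also passed without A101D replicate 2 or 6 or MeWo replicate 3, 4, 6 or 8, with adjusted p from 0.0248 to 0.0486.

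Replicate libraries varied least for CDH2, among the 8 members in both lines. Its coefficient of variation was 2.84% in A101D and 2.72% in MeWo, against 1.35% and 1.52% from counting alone. In A101D it was 25.4% for CDH19, 27.4% for CDH13 and 23.3% for CDH11, and 4.44% to 11.5% for these genes within a set. CDH3 and CDH4 in A101D varied by 43.8% and 41.5%, below the 55.5% and 54.4% that their few counts give.

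The genes whose log2 CPM followed each member best over the 8 libraries of the line where it was higher are given as a description. Each was picked from 9639 or more genes over only 8 libraries. Such a pick gives high values by itself, and none was tested. For CDH13 in A101D these were TMEM185A, JRKL and LINC00294, with Pearson r of 0.998, 0.997 and 0.997 among 10097 genes of at least 10 CPM. CDH11 in A101D was nearest to PHETA2, SLC39A13 and TRIM58 (r of 0.993, 0.990 and 0.990), and CDH1 to DESI2, DCAF4 and TBC1D9 (0.995, 0.994 and 0.993). All libraries of this line share the split between replicates 1-4 and 5-8, so such values arise for any gene that follows it. CDH2 in A101D was nearest to KTN1, IMMP2L and VCL, at 0.951, 0.916 and 0.908. In MeWo, CDH19 was nearest to EDIL3, DIS3L and ATAD5 (0.987, 0.985 and 0.978), CDH3 to NTAN1, DCP2 and MECR (0.968, 0.961 and 0.951), and CDH4 to C12orf29 and N4BP2 (0.904 and 0.887).

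The other genes of the cadherin family, the proteins that bind cadherin tails and the factors known to act on cadherin genes were compared from lists. Some named genes were hardly read in a line and passed the filter on low counts through the other, which built in some difference. Those through A101D, besides CDH12 and CDH18, were ZEB1, PRRX1, NECTIN4, FAT3, DSC3 and PKP2. Those through MeWo were CTNNA2, FAT4, PCDH10 and PCDH17. With upper-quartile factors over all genes with a count the splits given below were 2 higher and 5 lower for the other cadherins, 11 and 4 for the catenins and junction adaptors, 8 and 4 for the regulators, 8 and 3 for the processing genes, 4 and 2 for the desmosome genes and 9 and 8 for the protocadherins and large cadherins. Of 15 other cadherins, 8 were tested and all 8 passed, with 2 higher in MeWo and 6 lower, beside 79.0% of all genes called (38.6% higher and 40.4% lower), with a median log2 fold change of -1.28. CDH12 and CDH18, type II cadherins of the nervous system, passed the filter on low counts through A101D and were hardly read in MeWo: CDH12 had 1342 counts against 8, a ratio of 167 (exact 95% interval 84.5 to 388), and CDH18 had 468 against 1 (83.2 to 18450). CDH15, the cadherin of skeletal muscle, was lower in MeWo, at -1.77 ± 0.28 on the log2 scale. CDH23, a long cadherin of the hair cell tip link, was higher by 2.41 ± 0.21, at 3.80 to 6.28 CPM against 0.442 to 1.66 CPM.

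The catenins and junction adaptors gave 16 tested genes of 17. In MeWo 9 stood higher than in A101D and 7 lower, beside 38.6% and 40.4% of all genes, with a median of 0.47. Beta-catenin (CTNNB1), which binds the cadherin tail, was at 479 to 565 CPM in A101D against 1473 to 1637 CPM in MeWo, a log2 fold change of 1.62 ± 0.04 (SE, adjusted p of limma-voom = 4.64e-17). Alpha-catenin (CTNNA1), the link to actin, was at 530 to 583 CPM in A101D against 1131 to 1248 CPM in MeWo, or 1.11 ± 0.03 (adjusted p = 1.34e-15). Plakoglobin (JUP), which can take the place of beta-catenin, went the other way, with 15.03 to 26.6 CPM in A101D against 0.190 to 0.599 CPM in MeWo, or -5.77 ± 0.28 (adjusted p = 2.59e-12). p120-catenin (CTNND1), which holds cadherins at the membrane, was higher in MeWo by 0.61 ± 0.09. The neural paralogs CTNNA2 and CTNND2 were higher in MeWo by 4.91 ± 0.18 and 2.94 ± 0.19. The nectins NECTIN4 and NECTIN3, adhesion proteins that stand beside cadherins in junctions, were lower, with 867 counts against 14 for NECTIN4 (ratio 61.7, 36.6 to 113) and -0.92 ± 0.17 for NECTIN3.

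**Figure D4:**
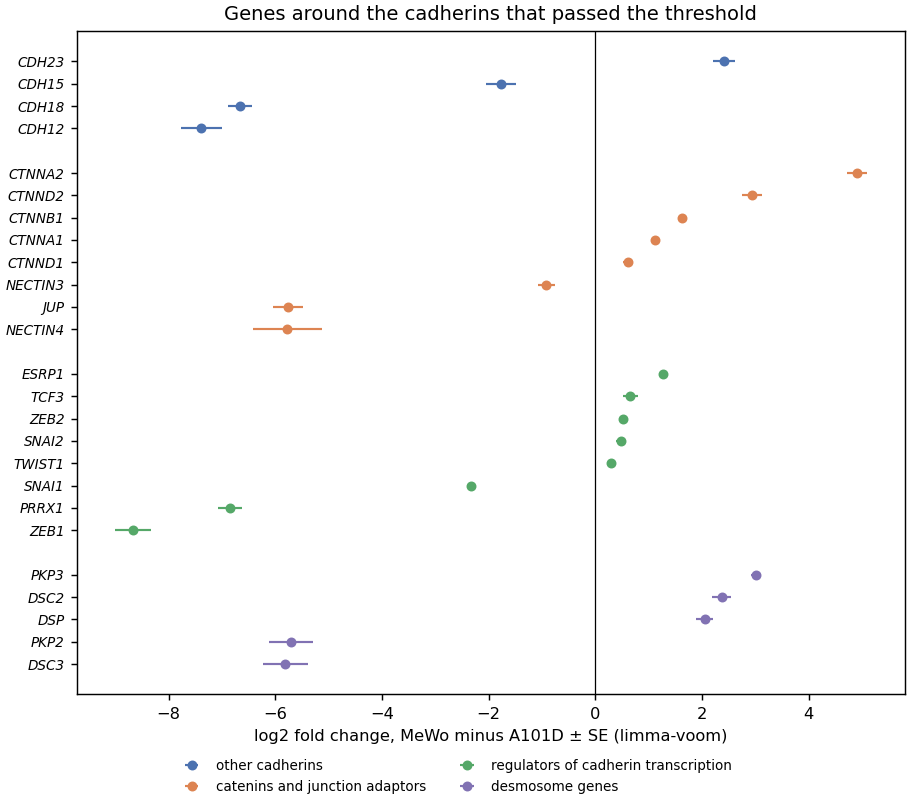
Log2 fold change ± SE, MeWo minus A101D (limma-voom), of the named genes of 4 lists, coloured by list, all past an adjusted p of 0.05. CTNNB1, CTNNA1 and CTNND1 lie to the right at 1.62, 1.11 and 0.61, and JUP, ZEB1 and PRRX1 lie to the left at -5.77, -8.67 and -6.85. ZEB1 and PRRX1 are among the genes that passed the filter on low counts through their level in A101D.

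Of 20 genes listed as regulators of cadherin transcription, 12 were tested, with a median of 0.36. Of those, 7 were higher, 4 were lower and 1 did not pass, where 79.0% of all genes passed. The list includes ESRP1 and ESRP2, which are splicing factors and not regulators of transcription. The repressors of CDH1 differed in direction. ZEB1 was at 6.06 to 9.97 CPM in A101D, with 2115 counts against 3 in MeWo, a ratio of 702 (exact 95% interval 240 to 3407). It passed the filter on low counts through A101D, so some difference was built in. Its paralog ZEB2 was higher in MeWo, at 277 to 302 CPM against 165 to 231 CPM, or 0.53 ± 0.07 on the log2 scale. SNAI1 was lower in MeWo, at -2.33 ± 0.08, at 2.49 to 3.71 CPM against 14.7 to 17.4 CPM, and SNAI2 was higher by 0.47 ± 0.09. TWIST1 was higher by 0.29 ± 0.08 and its libraries overlapped between the lines. PRRX1, a homeobox factor of mesenchyme, was lower, at -6.85 ± 0.23, and ESRP1, an epithelial splicing factor, was higher by 1.26 ± 0.04. TCF3, which encodes the E-box proteins E12 and E47, was higher by 0.66 ± 0.14.

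All 12 genes of cadherin processing and cleavage were tested, with 4 higher in MeWo, 5 lower and 3 without a call, near the 79.0% of all genes that passed, and a median of 0.11. FURIN, a convertase that trims the cadherin precursor, was higher by 0.47 ± 0.07, and PCSK6, another convertase, was lower, at -4.84 ± 0.18. ADAM15, a surface metalloprotease, was higher by 0.87 ± 0.04. CBLL1, an E3 ligase for E-cadherin, was lower, at -1.16 ± 0.07. PSEN2 and PSENEN, parts of gamma-secretase, were at 0.28 ± 0.06 and -0.67 ± 0.07.

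Of 11 desmosome genes, which include the desmosomal cadherins, 6 were tested and all passed, 4 higher and 2 lower, beside 79.0% of all genes, with a median of 1.52. PKP3, DSC2 and DSP were higher in MeWo by 3.01 ± 0.10, 2.37 ± 0.18 and 2.05 ± 0.16. DSC3 and PKP2 were lower, with 445 counts against 5 and 303 against 2. Of 23 protocadherins and large cadherins, 19 were tested, 6 were higher, 12 were lower and 1 did not pass, beside the same 79.0%, with a median of -0.31. FAT4 was higher in MeWo, at 15.02 to 20.8 CPM against 0.0877 to 0.277 CPM, and FAT3 was lower, at 0.112 to 0.314 CPM against 72.4 to 110.7 CPM. PCDH10 and PCDH17 were higher, with 1092 counts against 9 and 2462 against 62. CLSTN3 and PCDH12 were lower, at -4.18 ± 0.09 and -4.21 ± 0.47.

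Between the replicate sets of A101D, the catenins and junction adaptors had 9 genes higher, 5 lower and 3 that did not pass, and the regulators 4 higher, 4 lower and 4 that did not pass, beside 65.5% of all genes called (33.8% higher and 31.7% lower). JUP rose by 0.56 ± 0.06 on the log2 scale, NECTIN3 by 0.90 ± 0.04, CTNND1 by 0.43 ± 0.07 and CTNND2 by 1.13 ± 0.20. CTNNB1 and CTNNA1 stood at -0.09 ± 0.03 and -0.07 ± 0.03, and no direction is given for them, since total-count library sizes moved the median of all genes from 0.02 to 0.11. Among the repressors of CDH1, ZEB1 and TWIST1 rose by 0.39 ± 0.09 and 0.38 ± 0.07. SNAI2, ZEB2 and TCF3 were lower, at -0.48 ± 0.04, -0.36 ± 0.04 and -0.76 ± 0.04. SNAI1 stood at 15.2 to 17.4 CPM in replicates 1-4 and 14.7 to 15.3 CPM in replicates 5-8, so its libraries overlapped. The desmosome genes had 4 higher and none lower of 7 tested, beside the same 65.5%, among them DSC3 at 1.04 ± 0.17 and PKP2 at 1.2 ± 0.21. In MeWo, 5 of 17 catenins and junction adaptors and 2 of 12 regulators passed, beside 13.8% of all genes, of which SNAI2 was at 0.16 ± 0.04 and TCF3 at -0.15 ± 0.04.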

How the data were processed

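The 16 libraries came from total RNA by a kit that keeps strand, per the labels' protocols. In 1 table per line, the authors deposited raw whole-number counts per gene, with an Ensembl identifier and a count joined in each cell, so this unit is recorded as other. Per the submitters' processing notes, Trimmomatic 0.39-1, STAR 2.7.1a, featureCounts 2.0.0 and GRCh38 were used. Which strand setting and which annotation were used is not given in the sources used here, so reads of antisense or overlapping genes cannot be told apart. Identifier and count were separated, and columns were matched to samples by the line's letter and the replicate number. A gene name table holds 60357 of the 60676 identifiers, and GENCODE v29 holds 58503 (96.4%), from which positions and summed exon lengths were taken.

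Library sizes were scaled by trimmed mean of M-values (TMM; trims of 30% and 5%) over genes past the filter. Genes reaching the CPM of 10 counts at median depth (0.298) in 8 libraries (line comparison, 19247 genes) or 4 libraries (groups by line and replicate set, 21569 genes), and 15 counts in all, were tested with limma 3.58.1 in R 4.3.3 (voom, robust moderation), with Benjamini-Hochberg adjustment over all tested genes and a threshold of 0.05. Log2 fold changes are MeWo minus A101D, or replicates 5-8 minus 1-4. Ratios of summed counts have exact 95% intervals, a count of 0 allows up to 3 counts, and both cover counting error only. On simulated counts the line fit recovered 100 of 100 genes changed 2-fold, with 15 unchanged genes called, among 19509 genes. The A101D set contrast recovered 98 of 100 among 20614. Those counts had a fixed dispersion, few changed genes, none of them low in counts, and no difference between replicate sets in the line fit. They do not show recovery for members with few counts or where most genes differ. Libraries of a line differed by more than sampling noise (lowest chi-square over degrees of freedom 1.97), so each counted once.

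The members and the lists were chosen with earlier results of these data known. Besides the 8 members, the text names CTNNB1, CTNND1, CTNNA1, JUP, SNAI1, SNAI2, ZEB1, ZEB2 and TWIST1, and in each list the 3 largest and 3 smallest log2 fold changes past the threshold with a mean of at least 1 CPM in a line. Likeness was ranked by Pearson r of log2 CPM (prior count 2) among genes of at least 10 CPM, and the 3 nearest are named, of which 1 gene is not reported here. PDGFRA and PDGFRB were singled out after their values were seen, as were FAT1, CDH24, DSG2 and PCDH1 for their level per length. Alternatives were total counts, upper-quartile and median-of-ratios factors, a 1 CPM filter, no filter, limma-trend, a threshold of 0.01, limma's treat with a 2-fold bound, the replicate block and leaving out each library. Upper-quartile factors over all genes with a count were added after seeing the data.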

Additional observations from a re-analysis of the deposited data

Results flagged for a closer look

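CDH2 in A101D replicates 5-8 had 1 library apart from the rest: replicate 8 stood at 166 CPM, and the other 3 lay between 157 and 158 CPM. CDH6 in A101D had its highest library, replicate 1, at 1.07 CPM, beside a next highest of 0.683 CPM. Each gap, divided by the range of its group, passed Dixon's critical value at the 95% level for 4 and for 8 libraries, at 0.893 and 0.578. Of 36 groups of libraries checked, these 2 were found, and chance gives about 1 in 20, here 1.8.

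The contrast of replicates 5-8 with 1-4 differed between the lines for 2 members by the test of the difference in limma-voom. For CDH11 the log2 difference, MeWo minus A101D, was 0.52, with a fall in A101D and no call in MeWo. For CDH19 it was -0.89, with a rise in A101D and a fall in MeWo.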

How the results depend on the processing

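The counts of members past the threshold kept within 1.5 times under every other scaling, filter and threshold tried, apart from the following. With a 2-fold bound as the null (limma's treat) 5 members passed between the lines, 5 in replicates 5-8, 5 other cadherins, 7 catenins and junction adaptors, 5 regulators, 2 processing genes and 10 protocadherins and large cadherins. The same test gave 0 members between the replicate sets of A101D, of MeWo and for the difference between them, with 0 also at an unadjusted p under 0.05 in each, while limma-voom without that bound gave 4, 1 and 2. A filter at 1 CPM left 5 other cadherins. For the difference between the lines, limma-trend gave 4 members, and leaving out each library in turn gave 2 to 4, with 4 without MeWo replicate 8. Upper-quartile factors over all genes with a count moved mean levels to 135 CPM (A101D) and 151 CPM (MeWo) for CDH2, and in MeWo to 2.87 for CDH3, 3.03 for CDH4, 3.92 for CDH11 and 255.5 for CDH19.

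Changes of sign were as follows, and their cause was not tested. Under upper-quartile factors over all genes, CDH2 was at 0.156 between the lines, 0.152 in replicates 1-4, 0.160 in replicates 5-8 and 0.008 for the difference between the lines, and CDH1 in replicates 1-4 was at 0.155. The split of calls between the lines then was 11221 higher and 4955 lower, against 7421 and 7781. CDH2 between the A101D sets (lowest -0.014 otherwise when a library was left out) was 0.001 with median-of-ratios factors, 0.043 with upper-quartile factors and 0.075 with total counts, and 0.018, 0.007, 0.011 and 0.008 without A101D replicate 3, 5, 6 and 7. Leaving out each library, CDH3 ran from -0.075 (without A101D replicate 1) to 0.588 between the A101D sets and from -0.397 to 0.265 (the same library) for the difference. CDH6 ran from -1.433 to 0.002 between the MeWo sets and from -1.119 to 0.315 for the difference, both highest without MeWo replicate 7. CDH11 ran from -0.105 to 0.019 (without MeWo replicate 8) between the MeWo sets. Of these, CDH2 in the line comparisons had passed the threshold with TMM factors and the others had not. Calls between the MeWo sets were 1056 higher and 1976 lower with median-of-ratios factors, 2041 and 1037 with total counts, and 632 and 2704 with upper-quartile factors over all genes, against 1373 and 1593.

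The line call of CDH1 was lost with no filter (adjusted p = 0.0531), with upper-quartile factors over all genes (0.519) and at a threshold of 0.01. Same-numbered libraries of the lines correlated by 0.052 to 0.174 in their deviations from the line means, over 0.1 in 7 of 8 pairs, and by -0.029 to 0.093 in their deviations from the set means, over 0.1 in 0 of 8. Pairing was to be taken only where every pair was over 0.1, so the numbers were not taken to pair the libraries, and 2 of 8 A101D libraries correlated best with their own number. With the replicate number as a block, CDH1 passed for the difference between the lines (-0.73, adjusted p = 0.0466), and no other call of a member changed. No paired analysis was possible because replicates 1-4 and 5-8 of a line share no number, for the contrasts within a line. The quasi-likelihood and Wald count tests were not run, since the joined cells did not pass as counts. CDH3 and CDH4 in A101D, CDH13 in MeWo and CDH6 in MeWo rest on at most 11 counts a library. No change between the replicate sets was called within those groups. Whether a change could be detected at this depth was not tested.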
